A study of Mus musculus with 6 samples.

Results

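NF-κB is a family of dimeric transcription factors that macrophages use to turn inflammatory signals into gene expression. The 10 genes described here were chosen by name. They are the 5 subunits *Nfkb1*, *Rela*, *Rel*, *Nfkb2* and *Relb*, the IκB inhibitors *Nfkbia*, *Nfkbie* and *Nfkbiz*, and the ubiquitin regulators *Tnfaip3* and *Birc3*. All 10 were found among the 23424 genes of the deposited tables, had reads in all 6 libraries and were among the 14645 protein-coding genes tested.

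The libraries came from tumor-associated macrophages (TAMs) of untreated wild-type female C57Bl/6J mice, 8 weeks old when the tumors were induced. The tumors grew from cells of YUMM1.7, a mouse melanoma line, placed in the skin. On day 21, live CD45+ CD11b+ cells without lineage markers were sorted by F4/80, a macrophage surface protein encoded by *Adgre1*, into F4/80high and F4/80low TAMs, and poly-A RNA was sequenced. Each subset has 3 libraries, replicates 1, 2 and 3, each from pooled tumors of 1 of 3 independent experiments, so each replicate number is a pair of subsets. The study's plot of the samples puts replicates 1 and 2 in batch 1 and replicate 3 in batch 2, and what defines a batch is not given in the sources used here.

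In resting cells, IκB proteins hold NF-κB dimers in the cytoplasm. Signals from toll-like, interleukin-1 and tumor necrosis factor receptors activate the IκB kinase complex (IKK), the inhibitor is degraded and the dimers enter the nucleus. Several genes that NF-κB switches on encode its own brakes, so transcripts of the inhibitors are widely used as readouts of recent NF-κB activity, although transcript levels alone do not measure that activity.

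The total counts ran from 16045281 to 43604373, and the batch 2 pair was the shallowest. In that pair 17.1% of the F4/80high counts and 16.1% of the F4/80low counts lay in *Lars2*, *Gm23935* and *Gm15564*, against 0.378% to 0.609% in batch 1. *Adgre1*, whose protein was used for the sort, was at 273, 539 and 360 CPM in F4/80high and at 243, 326 and 184 CPM in F4/80low replicates 1, 2 and 3, higher in F4/80high in each pair. The 8 macrophage markers checked were all detected, with a summed level of 6103.5 to 21093 CPM in F4/80high, where replicate 2 was the highest, and of 7770.3 to 9699 CPM in F4/80low. CPM is the count relative to the library size, scaled with the TMM factors of edgeR. In sorted bulk samples, fewer cells of a type and less RNA per cell cannot be told apart.

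Since several of these genes are known targets of NF-κB, their promoters are shown first. RefSeq promoters (GRCm38.p6, 250 bases before to 50 after a start) were at hand for 7 of the 10 genes, *Nfkb2*, *Rel*, *Rela*, *Nfkbia*, *Nfkbie*, *Tnfaip3* and *Birc3*, with 10 promoters in all. They were searched on both strands for the κB consensus, the 10-base motif that NF-κB dimers bind, and for the shorter GGGNNTTCC, which overlaps it. Of 32851 promoters in the same table, 8.46% held the consensus, 5.82% held GGGNNTTCC and 11.91% held either. At least 1 match was found in a promoter of 5 of these 7 genes, *Nfkb2*, *Rel*, *Nfkbia*, *Nfkbie* and *Tnfaip3*, and in 7 of the 10 promoters. The 130 bases before the start are shown for 4 of them, because their matches lie close to the start, with the matched letters in capitals and each sequence on the strand of its gene. *Nfkb2* has matches 39 to 29 and 11 to 2 bases before the start of its first listed promoter, and only a 30-base stretch around the first is shown.
*Nfkbia* (chr12:55492648-55492777, minus strand): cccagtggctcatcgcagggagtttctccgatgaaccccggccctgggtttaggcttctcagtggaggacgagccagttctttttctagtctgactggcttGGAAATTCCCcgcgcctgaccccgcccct
*Tnfaip3* (chr10:19015411-19015540, minus strand): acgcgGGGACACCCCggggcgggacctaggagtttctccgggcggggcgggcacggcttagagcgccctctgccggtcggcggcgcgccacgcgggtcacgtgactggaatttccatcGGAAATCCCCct
*Nfkbie* (chr17:45555570-45555699, plus strand): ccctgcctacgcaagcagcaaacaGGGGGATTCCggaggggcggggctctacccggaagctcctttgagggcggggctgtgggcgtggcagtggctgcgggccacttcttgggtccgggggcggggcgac
*Rel* (chr11:23770970-23771099, minus strand): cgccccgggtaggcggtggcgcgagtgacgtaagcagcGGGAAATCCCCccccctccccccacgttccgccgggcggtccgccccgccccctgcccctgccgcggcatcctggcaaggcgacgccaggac
*Nfkb2* (chr19:46304692-46304721, plus strand): cgtcacGGGAATTCCCCccctcggggggcc
The match in *Nfkbia*, GGAAATTCCC, lies 29 to 20 bases before the start. *Tnfaip3* has GGGACACCCC 125 to 116 bases and GGAAATCCCC 12 to 3 bases before its start. The listed promoters of *Rela* and *Birc3* and the second one of *Tnfaip3* held no match, which says only that these letters are not in those windows. A match is a description of the sequence, and no binding was measured here.

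Across the 3 experiments, the 10 transcripts were mostly less abundant in F4/80high than in F4/80low TAMs, but no single difference passed the threshold. In edgeR's quasi-likelihood test with a term for batch, the log2 fold change of F4/80high over F4/80low was below 0 for 10 of 10 genes, as for 49.2% of all genes tested. The median of the 10 was -0.50, against 0.01 over all genes, and it was -0.82 without F4/80high replicate 1 and -0.31 when F4/80low replicate 1 was left out. In the fit without that last library, 7 of the 10 were below 0, and *Rela*, *Relb* and *Nfkbiz* stood at 0.18, 0.02 and 0.22. None of the 10 was called at a Benjamini-Hochberg adjusted p under 0.05 with an absolute log2 fold change above 1. The same test called 0.0% of all genes, 0 of 14645, although 1113 of them had an unadjusted p under 0.05, and DESeq2 with the batch term called 148 genes and none of the 10. Within pairs, 8 of the 10 were lower in F4/80high in all 3 pairs, against 15.9% of all genes. The levels overlapped between the subsets for all 10 genes when the pairing was ignored. How many of all genes overlap in this way was not counted.

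**Figure D1:**
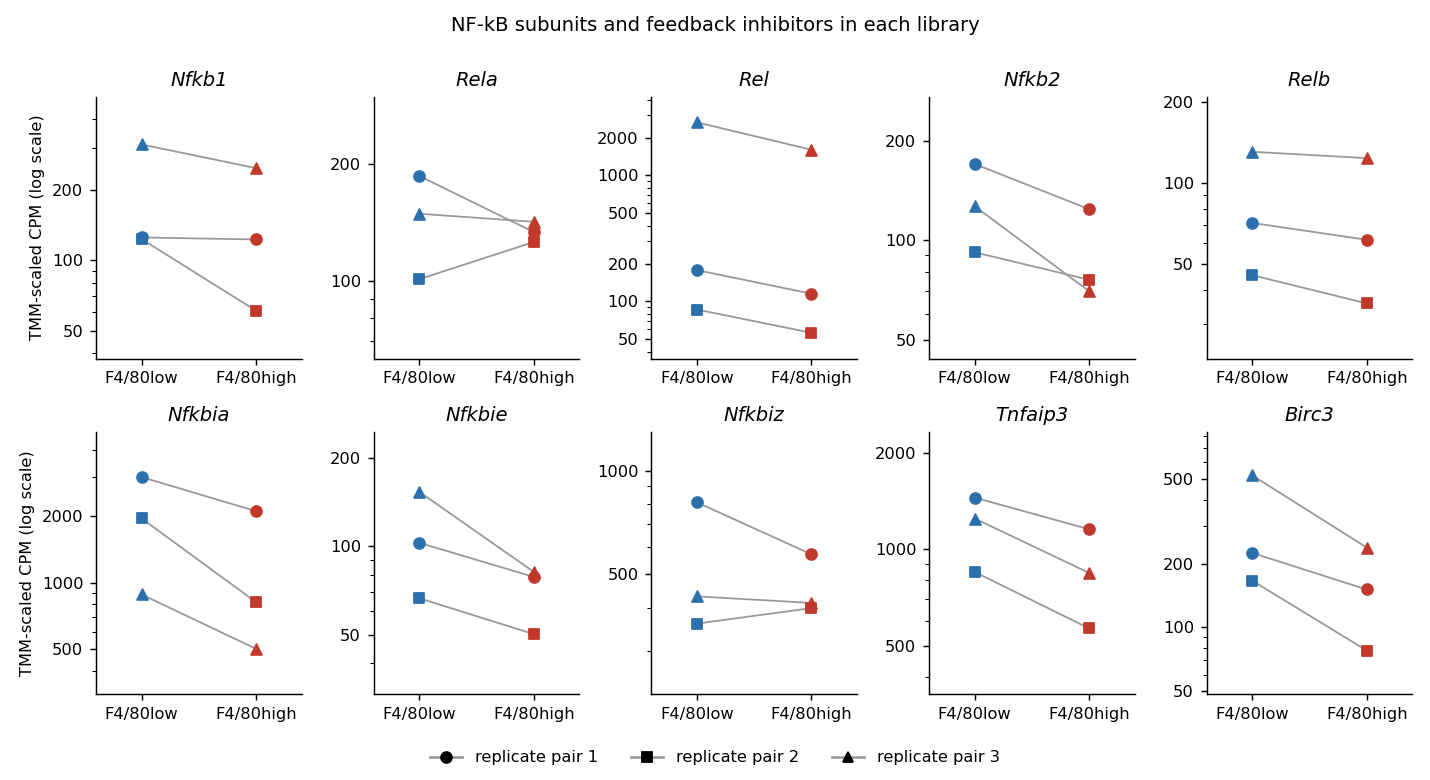
TMM-scaled CPM (log scale) of each of the 10 genes in the 6 libraries, with F4/80low in blue and F4/80high in red, marker shape for the replicate and a grey line joining the libraries of 1 experiment. The line of each of the 3 experiments slopes down to F4/80high for 8 genes, and that of replicate 2 slopes up for *Rela* and *Nfkbiz*.

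*Nfkb1*, *Rela* and *Rel* encode the subunits of the canonical arm. *Nfkb1* makes a precursor that is processed to a DNA-binding subunit without an activation domain, and RelA and c-Rel carry the activation domains. *Nfkb1* (ENSMUSG00000028163, chr3:135584655-135691547 in GRCm38) was at 122, 60.8 and 247 CPM in F4/80high and at 125, 123 and 312 CPM in F4/80low replicates 1, 2 and 3. It was nearly level in pair 1, with a log2 difference of -0.03, and the log2 fold change was -0.40 (SE 0.28, adjusted p = 0.740 in edgeR). The annotation puts *Gm43430* on the same strand over 3897 bases of *Nfkb1*, so reads of the pair may not have been told apart.

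*Rela* (ENSMUSG00000024927, chr19:5637483-5648130) was at 133, 126 and 142 CPM in F4/80high and at 186, 101 and 149 CPM in F4/80low. Its F4/80high libraries lay within the range of its F4/80low libraries, and the pairs pointed both ways, with log2 differences of -0.48, 0.32 and -0.07. The log2 fold change was -0.12 (SE 0.26, adjusted p = 0.938 in edgeR).

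*Rel* (ENSMUSG00000020275, chr11:23736847-23770970) differed by a similar factor in every experiment. It was at 115, 56.4 and 1600.3 CPM in F4/80high and at 177, 86.3 and 2639.5 CPM in F4/80low replicates 1, 2 and 3. The F4/80low library held 1.54, 1.53 and 1.65 times the F4/80high level in pairs 1, 2 and 3. The log2 fold change was -0.65 (SE 0.34, adjusted p = 0.696 in edgeR).

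*Nfkb2* and *Relb* encode the non-canonical dimer, whose precursor is processed after signals such as CD40 or lymphotoxin. *Nfkb2* (ENSMUSG00000025225, chr19:46304320-46312385) was at 124, 76.0 and 70.2 CPM in F4/80high and at 170, 92.0 and 127 CPM in F4/80low, lower in F4/80high in each pair. The log2 fold change was -0.54 (SE 0.31, adjusted p = 0.699 in edgeR). The annotation places the antisense gene *AC114539.1* over 1292 bases and *Psd* over 299 bases of *Nfkb2* on the other strand, and whether the counting used strand is not given in the sources used here, so reads of these genes may not have been told apart. *Relb* (ENSMUSG00000002983, chr7:19606217-19629438) was at 61.6, 35.8 and 124 CPM in F4/80high and at 71.1, 45.6 and 130 CPM in F4/80low. Its differences were small in each pair, between -0.35 and -0.08 on the log2 scale, and the log2 fold change was -0.20 (SE 0.28, adjusted p = 0.896 in edgeR).

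*Nfkbia* encodes IκBα, the inhibitor that is degraded and then resynthesized within the response. It was the most abundant of the 10 per deposited length of the gene in every library (ENSMUSG00000021025, chr12:55489410-55492647). *Nfkbia* was at 2109.9 CPM in F4/80high replicate 1, 817 in replicate 2 and 502 in replicate 3, and at 3011, 1956 and 885 CPM in F4/80low. The F4/80low level was 1.43, 2.39 and 1.76 times the F4/80high level in pairs 1, 2 and 3. The log2 fold change was -0.78 (SE 0.35, adjusted p = 0.664 in edgeR).

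*Nfkbie* encodes IκBε, an inhibitor that is resynthesized more slowly. *Nfkbie* (ENSMUSG00000023947, chr17:45555703-45563169) was at 78.6, 50.2 and 81.8 CPM in F4/80high and at 103, 66.5 and 153 CPM in F4/80low. It was lower in F4/80high in each pair, most in pair 3 at -0.91 on the log2 scale, and the log2 fold change was -0.56 (SE 0.28, adjusted p = 0.690 in edgeR). *Nfkbiz* encodes IκBζ, a nuclear IκB that is needed to switch on a later set of targets. *Nfkbiz* (ENSMUSG00000035356, chr16:55811375-55838899) was at 572, 399 and 413 CPM in F4/80high and at 809, 360.0 and 432 CPM in F4/80low. As with *Rela*, the pairs pointed both ways, at -0.50, 0.15 and -0.06, and the log2 fold change was -0.20 (SE 0.32, adjusted p = 0.910 in edgeR).

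*Tnfaip3* encodes a ubiquitin-editing enzyme that shuts off signaling upstream of IKK. *Tnfaip3* (ENSMUSG00000019850, chr10:19000910-19015657) was at 1155, 567 and 845 CPM in F4/80high and at 1449, 850.4 and 1247 CPM in F4/80low. It was lower in F4/80high by similar amounts in each pair, between -0.58 and -0.33 on the log2 scale, and the log2 fold change was -0.47 (SE 0.32, adjusted p = 0.738 in edgeR).

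*Birc3* encodes a ubiquitin ligase that acts in tumor necrosis factor receptor complexes, where it promotes canonical and restrains non-canonical signaling. It showed the largest log2 fold change of the 10. *Birc3* (ENSMUSG00000032000, chr9:7848699-7873186) was at 151, 77.9 and 238 CPM in F4/80high and at 224, 166 and 519 CPM in F4/80low. The F4/80low library held 1.49, 2.13 and 2.18 times the F4/80high level in pairs 1, 2 and 3. The log2 fold change was -0.89 (SE 0.29), with an unadjusted p of 0.013 and an adjusted p of 0.524 in edgeR. *Birc3* was the only one of the 10 with an unadjusted p under 0.05 in this test, 1 of 10, beside 4.32% of all genes in that direction. In the fit with batch, that count moved when single libraries were left out and a pair was thereby broken. It was 7 of 10 without F4/80high replicate 1, beside 13.6% of all genes with such a p in either direction, and 5 when F4/80low replicate 2 was left out, beside 7.95%. It was 0 when F4/80low replicate 1 was left out, beside 4.08% of all genes, and 0 without either library of replicate 3, beside 3.8% each. In the fits without a library of replicate 3, the other one is alone in batch 2 and the batch term absorbs it. Both fits therefore compare the subsets in batch 1 alone.

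In the fit with batch, the sizes of these differences also moved when single libraries were left out. That fit does not pair the libraries, so the partner of the library left out stayed in without its pair. These shifts therefore cannot be told apart from differences in level between the experiments. F4/80high replicate 1 was the library whose absence gave the lowest log2 fold changes of *Rel* (-1.01), *Nfkbia* (-1.26), *Tnfaip3* (-0.82), *Nfkb2* (-0.82) and *Nfkb1* (-0.73). The values nearest to 0 were -0.32 for *Rel*, -0.23 for *Tnfaip3* and -0.30 for *Nfkb2* without F4/80low replicate 1, and -0.51 for *Nfkbia* and -0.18 for *Nfkb1* without F4/80high replicate 2. *Birc3* ran from -1.24 to -0.72 and *Nfkbie* from -0.82 to -0.39.

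When the term for batch was replaced by the replicate block, the log2 fold changes of the 10 genes stayed close in size and their SE was smaller for all 10. In edgeR with the replicate block, 6 of the 10 had an unadjusted p under 0.05, all lower in F4/80high, beside 5.95% of all genes in that direction. Their unadjusted p-values in this edgeR fit were 0.0013 for *Birc3*, 0.0015 for *Nfkbia*, 0.0041 for *Rel*, 0.018 for *Tnfaip3*, 0.025 for *Nfkbie* and 0.032 for *Nfkb2*. The log2 fold changes of these 6 genes were -0.93, -0.86, -0.65, -0.49, -0.56 and -0.53 in the same order. None of the 10 was called, and the lowest adjusted p among them was 0.104 for *Birc3*, while 0.519% of all genes were called. *Nfkb1*, *Rela*, *Relb* and *Nfkbiz* had unadjusted p-values of 0.080, 0.730, 0.319 and 0.501 in the same fit.

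DESeq2 with the replicate block was added once the values were known, and it gave adjusted p-values of 0.0029 for *Birc3*, 0.0058 for *Nfkbia* and 0.043 for *Rel*. Adjusted p-values under 0.05 with a lower level in F4/80high were found for 2.14% of all genes in that fit. The log2 fold changes of these 3 were -0.93, -0.86 and -0.65, all within the threshold of 1, so none of the 10 was called there either.

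**Figure D2:**
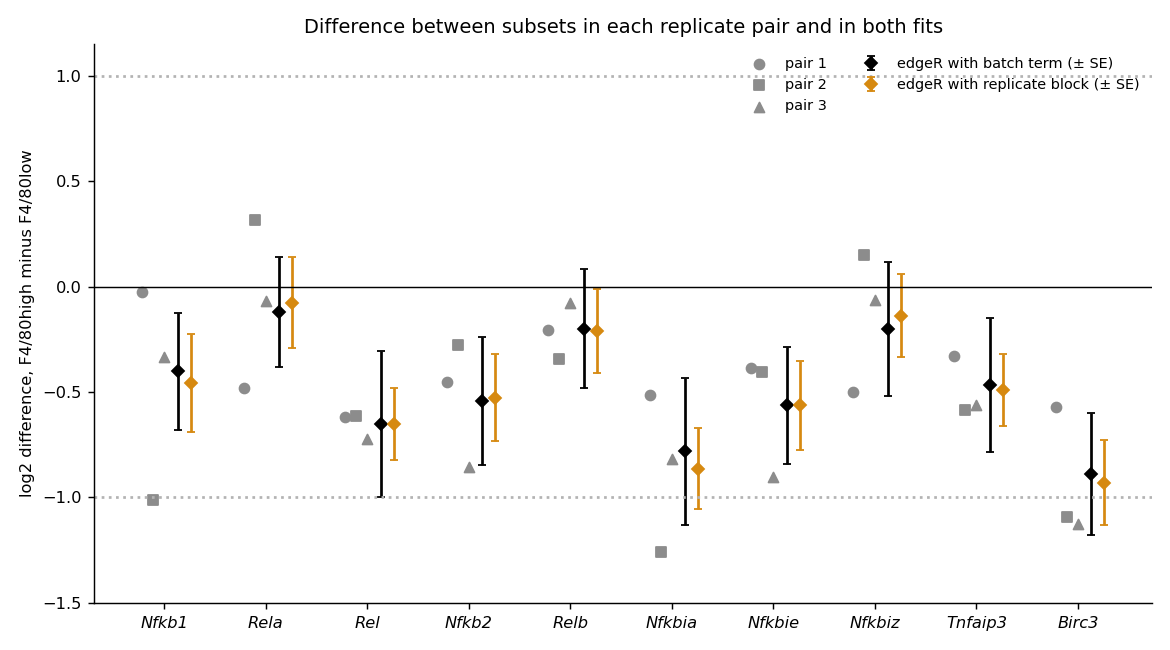
Log2 difference of F4/80high minus F4/80low for each gene, in each replicate pair (grey) and as the edgeR log2 fold change ± SE with the batch term (black) or the replicate block (orange), with dotted lines at -1 and 1. Both fitted values lie between -1 and 0 for each of the 10 genes, and *Rela* and *Nfkbiz* have a pair above 0.

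Beside these genes, markers of granulocytes and dendritic cells were lower in F4/80high in edgeR with batch. No marker was called in that fit, which called 0 of all 14645 genes. An unadjusted p under 0.05 was found there for 9 of 12 neutrophil, 8 of 10 eosinophil and 1 of 8 dendritic cell markers. All of these were lower in F4/80high, beside 4.32% of all genes in that direction. With the replicate block in edgeR, 7 of 12 neutrophil markers and 1 of 8 dendritic cell markers were called as lower in F4/80high. With that block in DESeq2, 10 of the neutrophil, 6 of the 10 eosinophil and 3 of the dendritic cell markers were. Of the 8 macrophage markers, 3 had log2 fold changes below 0 and 5 above 0 in edgeR with batch. With the block, 1 of them was called in edgeR, as higher in F4/80high, and 1 in DESeq2. The 2 fits with the block called 0.519% and 2.42% of all genes. All 12 neutrophil markers had a log2 fold change below 0, with a median of -1.39, and their summed level was 777 to 2191 CPM in F4/80high and 1606 to 5066 CPM in F4/80low. All 10 eosinophil markers also had log2 fold changes below 0, with a median of -1.66 and sums of 180.3 to 543 CPM against 412 to 1550 CPM. So had all 8 dendritic cell markers, with a median of -0.84 and sums of 82.1 to 326 CPM against 171 to 557 CPM. In pairs 1, 2 and 3, the neutrophil sum was 2191, 956 and 777 CPM in F4/80high against 5066, 3192 and 1606 CPM in F4/80low. Of these lists *Epx*, *Stfa2* and *Clec9a* had no read in at least 1 library, and no other marker of the 3 lists did. Of 6 fibroblast markers all 6 and of the 4 endothelial markers tested 3 had log2 fold changes below 0, and of 6 B cell markers 4 were above 0, and none of these was called with the batch term or the block in edgeR or with the block in DESeq2. Of 7 melanoma markers only *Pmel*, *Mitf* and *Sox10* were among the genes tested. *Pmel* and *Sox10* were at 0.233 to 1.82 CPM, while *Mitf*, which macrophages also express, was at 11.4 to 167 CPM. The 9 T and NK cell markers tested had log2 fold changes above 0, but none was higher in all 3 pairs. Their sums were 1129, 339.8 and 168 CPM in F4/80high against 391.9, 515 and 80.5 CPM in F4/80low replicates 1, 2 and 3, lower in F4/80high in pair 2. Neutrophils and dendritic cells also express NF-κB subunits and inhibitors. The part of these cells and of eosinophils in the lower *Nfkbia*, *Birc3* and *Rel* levels was not tested.

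The batches were compared after the levels had been seen. The batch term of the same edgeR fit had an adjusted p under 0.05 for 5 of the 10 genes, a share near the 42.6% of all genes. *Rel* was the gene of the 10 with the largest difference, with 1600.3 and 2639.5 CPM in the replicate 3 libraries against 56.4 to 177 CPM in the other 4, a difference of 4.27 on the log2 scale (SE 0.36, adjusted p = 2.8e-05 in edgeR). *Nfkb1*, *Relb* and *Birc3* were also higher in batch 2, by 1.38, 1.25 and 1.24 on the log2 scale (adjusted p = 0.0039, 0.0069 and 0.0083 in edgeR). *Nfkbia* went the other way, with a log2 difference of -1.52 (SE 0.40, adjusted p = 0.013 in edgeR). *Rela*, *Nfkb2*, *Nfkbie*, *Nfkbiz* and *Tnfaip3* did not pass, with log2 differences between -0.33 and 0.61. The batch is also the experiment and the depth, and these cannot be told apart.

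Levels were also set side by side between genes as RPKM, the CPM divided by the deposited length of the gene in kilobases. That length was 12061 bases for *Nfkb1* and 3885 for *Relb*. Whether it is that of a single transcript is not given in the sources used here, and the positions below depend on it. *Nfkbia* was the highest in each batch, at a mean of 1251 RPKM over the 4 libraries of batch 1 and 439.9 RPKM over the 2 of batch 2. In batch 1 it was followed by *Tnfaip3* (139 RPKM), *Nfkbiz* (107 RPKM) and *Rela* (50.3 RPKM), so that 3 inhibitors or regulators lay above every subunit. *Rel* was in position 8 of 10 there, at 14.6 RPKM, with *Relb* at 13.8 and *Nfkb1* at 8.93 RPKM below it. In batch 2 *Rel* was in position 2, at 284 RPKM, above *Tnfaip3* at 145 and *Nfkbiz* at 84.2 RPKM. *Rela* was at 53.5 RPKM, and *Nfkb1* was again the lowest, at 23.1 RPKM. Neighbors such as *Rel* and *Relb* in batch 1 overlapped from library to library, at 7.56 to 23.7 and 9.23 to 18.3 RPKM.

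**Figure D3:**
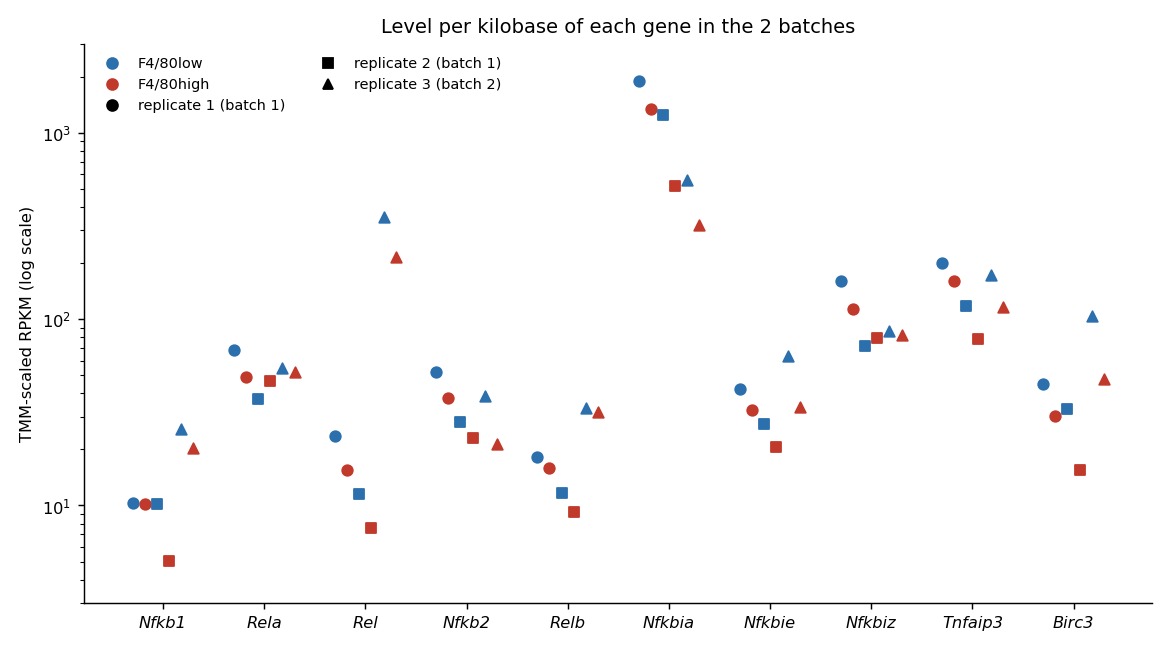
TMM-scaled RPKM (log scale) of the 10 genes in each library, with F4/80low in blue, F4/80high in red and triangles for the replicate 3 libraries of batch 2. *Nfkbia* is the highest gene in each batch, and the *Rel* triangles, at 214 and 354 RPKM, lie far above its other 4 libraries, at 7.56 to 23.7 RPKM.

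The rest of the pathway was read by role from lists of other genes, 86 in all, with the same edgeR fit with batch. None was called in that fit. An unadjusted p under 0.05 was found for 5 genes lower in F4/80high, beside 4.32% of all genes, and for 3 genes higher, beside 3.28%. Pooled over the 86, both shares were near those of all genes. However, all 5 of the lower genes and 2 of the 3 higher ones were target genes. The median log2 fold change of the 86 was -0.12. The other IκB genes were lower for 3 of 4, with a median of -0.31. None had an unadjusted p under 0.05 with batch or with the replicate block in edgeR. *Nfkbib*, which encodes IκBβ, was at 54.1 ± 20.2 CPM in F4/80high TAMs and at 71.9 ± 7.92 in F4/80low TAMs (SD, n = 3). *Nfkbid* and *Bcl3*, both nuclear IκB proteins, had log2 fold changes of -0.32 and -0.30.

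Of 15 other brakes on the pathway, 10 were lower in F4/80high and 5 higher, with a median of -0.18. None had an unadjusted p under 0.05 with batch or with the replicate block in edgeR. *Traf3*, which holds the non-canonical kinase in check, had a log2 fold change of -0.30 (SE 0.24), and *Cyld*, a deubiquitinase, one of -0.24 (SE 0.27). *Otulin*, a deubiquitinase of linear chains, was at 0.33 (SE 0.23).

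Among 16 IKK subunits and upstream kinases, 11 were lower and 5 higher, with a median of -0.11 and none with a p under 0.05. With the replicate block in edgeR 2 of them, *Ikbkb* and *Map3k14*, had an unadjusted p under 0.05, both lower in F4/80high, and the name of *Ikbkb* was added after its value was seen. *Map3k14*, which encodes the kinase of the non-canonical arm, had a log2 fold change of -0.60 (SE 0.33) and *Irak2*, a kinase of interleukin-1 and toll-like receptors, one of -0.46 (SE 0.25). *Irak4*, which acts just before it, was at -0.32 (SE 0.22). *Ikbke*, an IKK-related kinase, was at 0.52 (SE 0.28).

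The 19 adaptors and receptors were lower for 12 and higher for 7, with a median of -0.09. *Tnfrsf11a*, the receptor for RANK ligand, was the only one with a p under 0.05, higher in F4/80high at 0.73 on the log2 scale (SE 0.31, adjusted p = 0.639 in edgeR). *Rnf31*, the catalytic subunit of the linear ubiquitin ligase, and *Myd88*, the adaptor of toll-like and interleukin-1 receptors, had log2 fold changes of -0.64 (SE 0.31) and -0.47 (SE 0.24).

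The 32 target genes, taken from genes that NF-κB is known to induce, among them cytokines, chemokines, adhesion molecules, enzymes, receptors and survival genes, pointed both ways. Of these, 17 were lower and 15 higher, with a median of -0.20. *Cxcl3*, *Cxcl2*, *Plaur*, *Clec4e* and *Stx11* were lower in F4/80high with an unadjusted p under 0.05, and *Ccl4* and *Vcam1* were higher. These were 5 of 32 lower and 2 of 32 higher, beside 4.32% and 3.28% of all genes. None was called in edgeR with batch. With the replicate block in edgeR, 8 of the 32 were lower and 5 higher with such a p, beside 5.95% and 3.97% of all genes, and none was called. The names of *Clec4e*, *Stx11* and *Ccl2* were added after their values were seen. *Cxcl3*, a neutrophil chemokine, was at 94.3, 48.7 and 6.27 CPM in F4/80high and at 199.8, 159.7 and 11.5 CPM in F4/80low, and its log2 fold change was -1.20 (SE 0.30, adjusted p = 0.441 in edgeR). With the replicate block *Cxcl3* had a log2 fold change of -1.25 and an adjusted p of 0.065 in edgeR. With the block in DESeq2 it was the 1 target gene called (adjusted p = 0.00023), as were 2.42% of all genes. On the adjusted p alone, targets passed in both directions in that DESeq2 fit. *Stx11* (0.013) and *Clec4e* (0.015) also passed as lower in F4/80high, and *Ccl4* (0.0030), *Vcam1* (0.018) and *Ccl2* (0.048) passed as higher. *Cxcl2*, another neutrophil chemokine, had a log2 fold change of -0.60 (SE 0.21, adjusted p = 0.555 in edgeR), and *Plaur*, the urokinase receptor, one of -0.59 (SE 0.23, adjusted p = 0.607 in edgeR). *Ccl4*, a chemokine for monocytes and T cells, was at 318, 350.2 and 396 CPM in F4/80high and at 156, 217 and 216 CPM in F4/80low, higher in F4/80high in each pair, and its log2 fold change was 0.85 (SE 0.23, adjusted p = 0.461 in edgeR). *Ccl3*, its close relative, was at 0.50 (SE 0.24, adjusted p = 0.686 in edgeR), and *Vcam1*, an adhesion molecule, at 0.94 (SE 0.27, adjusted p = 0.504 in edgeR).

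**Figure D4:**
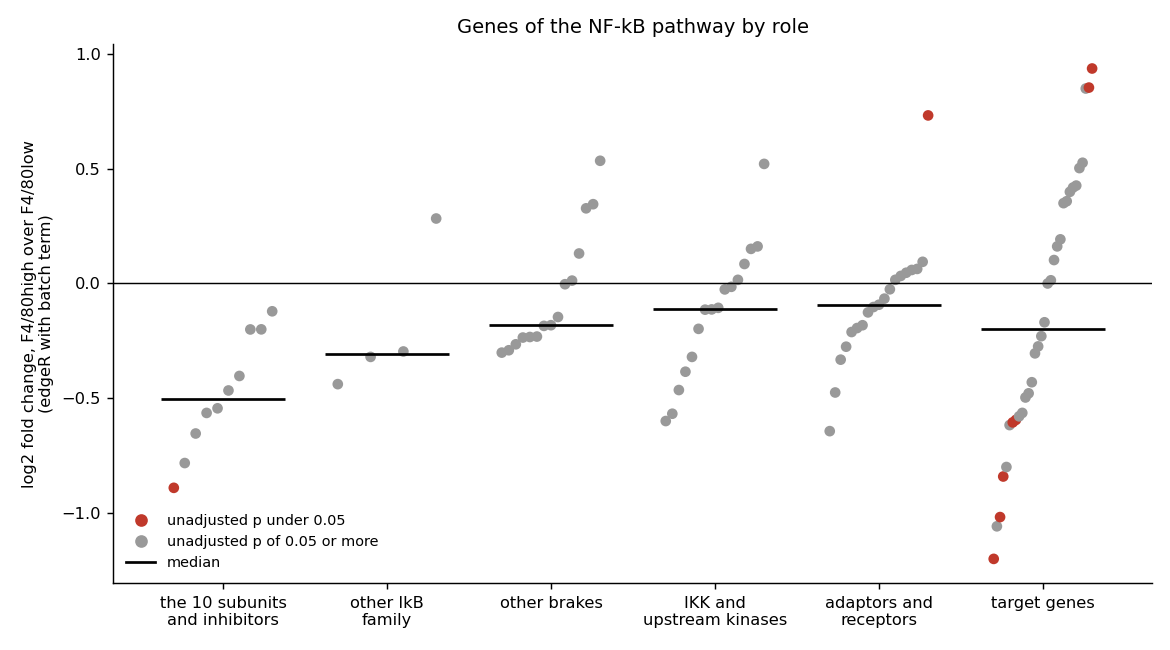
Log2 fold change of F4/80high over F4/80low (edgeR with the batch term) for each gene of the 6 lists, sorted within a list, with red points for an unadjusted p under 0.05 and a bar at the median. The 10 subunits and inhibitors all lie below 0 with a median of -0.50, whereas the 32 target genes spread from -1.20 to 0.94 around a median of -0.20.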

How the data were processed

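The authors deposited raw read counts per gene for each library, with the gene's length and biotype and with no normalization, per the file headers. The reads went through a pipeline of the sequencing center, whose aligner, counter, use of strand and genome build are not given in the sources used here. Genes were matched by ID to GENCODE M21 (GRCm38), which holds 99.4% of the IDs.

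The 14645 protein-coding genes whose 6 libraries together held 10 counts or more were fitted with edgeR 4.0.16 in R 4.3.3 (TMM, quasi-likelihood test, terms for batch and subset). The study's methods set this filter, the batch term and the thresholds, with DESeq2 as the tool. The SE is the log2 fold change divided by the square root of F. Within pairs, log2 differences were taken from log2 CPM (prior count 2). DESeq2 1.42.0 and other designs were alternatives, and 2 of them were added after the data were seen. Steps were tested on simulated data.

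The 10 genes and the lists were chosen with earlier results of these data known. All 10 genes are named, and of each other pathway list up to 3 genes with the smallest p in each direction, 1 direction in all 3 pairs and a mean of at least 1 CPM.

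Replicate numbers were taken to pair the subsets because the study made 3 independent experiments. Over 10072 genes, the 2 libraries of a pair deviated together from their subset means, with correlations of 0.745, 0.729 and 0.907 in pairs 1, 2 and 3. Totals of 16045281 to 43604373 counts make 3 counts worth 0.0688 to 0.187 CPM, and the lowest count of the 10 genes in a library was 649.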

Additional observations from a re-analysis of the deposited data

How the results depend on the processing

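None of the 10 genes was called under any of the 18 alternatives with both thresholds, nor on the adjusted p alone with the batch term or the replicate block in edgeR; on the adjusted p alone, DESeq2 with the replicate block passed 3. Of 180 alternative log2 fold changes of single genes, 177 were below 0, and the 3 above were *Rela*, *Relb* and *Nfkbiz* without F4/80low replicate 1. With single libraries left out, *Rela* ran from -0.331 to 0.1752, *Relb* from -0.4315 to 0.0219 and *Nfkbiz* from -0.4547 to 0.2169. The count with an unadjusted p under 0.05, 1 in the test reported beside 7.6% of all genes in either direction, was 2 with DESeq2 with batch (9.42%), with RLE size factors (7.63%) and with a filter of at least 1 count (7.45%), 0 without the batch term (1.73%) and in batch 1 alone (3.82%), 6 with the replicate block in edgeR (9.91%) and in DESeq2 (11.7%), and 2 with the replicate block in batch 1 alone (6.49%). It ran from 0 to 7 when single libraries were left out. The median log2 fold change, -0.50, was -0.40 in batch 1 alone and ran from -0.82 (without F4/80high replicate 1) to -0.31 (without F4/80low replicate 1). Where 1 library was left out, its partner stayed in without a pair, and the cause of these shifts was not tested. Over all genes, 0 were called with the batch term, 76 with the replicate block, 148 with DESeq2 with batch, 354 with DESeq2 with the replicate block and 77 without F4/80high replicate 1.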

Other observations

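The other pathway genes were also compared between the batches after the values had been seen. Of these 86 genes, 42 had an adjusted p under 0.05 for the batch term in edgeR, 21 higher and 21 lower in batch 2, a share near the 42.6% of all genes. Genes with large differences, picked for their size, are given here as values. *Bcl2l1*, a survival gene, was at 3001 and 4700.0 CPM in the replicate 3 libraries and at 90.7 to 162 CPM in the other 4. *Tbk1*, an IKK-related kinase, was at 497 and 540.2 CPM against 43.9 to 75.1 CPM, and *Ikbkg*, the regulatory subunit of IKK, at 167 and 195 CPM against 24.4 to 37.6 CPM. *Cd14*, a coreceptor for lipopolysaccharide, was at 253 and 329 CPM in replicate 3 against 1492 to 2756 CPM in the other 4 libraries, and *Ier3*, an early response gene, at 91.3 and 99.8 CPM against 491 to 725 CPM. What differed between the experiments was not tested.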
